A study of Mus musculus with 18 samples.

Results

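The genes described here are 10 genes of the Hippo pathway and its TEAD transcription factors: the coactivators Yap1 and Wwtr1 (the gene of TAZ), the factors Tead1, Tead2, Tead3 and Tead4, the kinase Lats2, the TEAD cofactor Vgll4, and the target genes Amotl2 and Ankrd1. They were chosen by name, and all 10 were found among the 47729 gene identifiers of the files. RNA was measured in 18 mouse cochlear libraries in 9 groups of 2. Of the 9 groups, 6 are primary cochlear organoids, abbreviated LCP in the sample titles, which the submitters describe as expanded and then differentiated. Sorted LCP cells were taken at day 10 (sorted LCP D10) and day 0 (sorted LCP D0), and unsorted cultures at day 0, day 2, day 4 and day 10 (LCP D0, D2, D4 and D10). The other groups are cells of the cochlear sensory epithelium sorted at postnatal day 2 and named in the titles for the hair cell gene Atoh1 or for the supporting cell genes Lgr5 and Sox2. The submitters' design compared native hair cells with native supporting cells, and LCP samples between time points. The labels state neither the mouse strain and reporter alleles nor the culture media, and they do not say which sort was applied to the LCP cells.

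In the Hippo pathway, the kinases Stk3 and Stk4 with Sav1 activate Lats1 and Lats2 with Mob1a and Mob1b, and the LATS kinases phosphorylate YAP and TAZ and so keep them out of the nucleus. When the kinases are inactive, YAP and TAZ enter the nucleus, where they bind TEAD proteins and raise target genes such as Ctgf, Cyr61, Ankrd1, Amotl2 and Lats2 itself. VGLL4 competes with YAP and TAZ for TEAD proteins. In the mouse inner ear, YAP and TEAD are known for a part in the growth of the sensory organs before birth. RNA levels do not show where the YAP and TAZ proteins were or whether they were phosphorylated.

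TEAD proteins are known to bind the letters GGAATG. The 250 bases before the RefSeq start (GRCm38.p6) were searched for GGAATG on both strands, so that CATTCC marks a match on the opposite strand. Windows were matched for 8 of the 10 genes, and not for Tead1 or Tead4. At least 1 match stood in a window of 6 of the 8 genes against 14.4% of all 27025 genes (12.6% of 32851 windows), with no match for Tead2 or Lats2. A match is a description of these letters and not of binding, which was not measured. The windows of 5 members are shown, those that the results below turn on, with the coactivators first, then Tead2 and the target genes, each 5′ to 3′ in the direction of its gene and with matches in capitals. They lie at chr9:8004597-8004846 on the minus strand (Yap1), chr3:57575911-57576160 on the minus strand (Wwtr1, the first of its starts), chr7:45215542-45215791 on the plus strand (Tead2), chr9:102717554-102717803 on the plus strand (Amotl2) and chr19:36119845-36120094 on the minus strand (Ankrd1).
Yap1: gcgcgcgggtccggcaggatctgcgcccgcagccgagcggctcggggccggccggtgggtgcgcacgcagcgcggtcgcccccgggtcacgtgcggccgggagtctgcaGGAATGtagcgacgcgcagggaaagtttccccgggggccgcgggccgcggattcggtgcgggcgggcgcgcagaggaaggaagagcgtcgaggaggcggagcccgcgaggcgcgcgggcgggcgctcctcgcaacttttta
Wwtr1: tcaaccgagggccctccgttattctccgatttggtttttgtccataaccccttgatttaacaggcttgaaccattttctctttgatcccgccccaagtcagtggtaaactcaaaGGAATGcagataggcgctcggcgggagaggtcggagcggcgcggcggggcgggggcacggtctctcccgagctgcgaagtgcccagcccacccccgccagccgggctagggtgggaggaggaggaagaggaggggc
Tead2: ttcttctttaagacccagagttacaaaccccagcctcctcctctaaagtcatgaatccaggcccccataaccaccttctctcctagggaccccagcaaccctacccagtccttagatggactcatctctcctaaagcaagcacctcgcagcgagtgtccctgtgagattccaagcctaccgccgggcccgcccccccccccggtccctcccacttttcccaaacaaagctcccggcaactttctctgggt
Amotl2: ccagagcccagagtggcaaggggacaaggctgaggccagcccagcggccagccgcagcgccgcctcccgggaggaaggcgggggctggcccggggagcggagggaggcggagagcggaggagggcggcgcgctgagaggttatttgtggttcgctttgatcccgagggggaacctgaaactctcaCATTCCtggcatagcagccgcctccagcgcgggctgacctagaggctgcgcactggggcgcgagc
Ankrd1: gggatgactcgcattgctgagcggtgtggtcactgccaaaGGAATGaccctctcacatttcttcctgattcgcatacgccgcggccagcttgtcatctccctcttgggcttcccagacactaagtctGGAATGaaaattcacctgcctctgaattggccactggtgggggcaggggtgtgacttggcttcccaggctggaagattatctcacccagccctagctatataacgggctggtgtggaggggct
The match lies 141 bases before the start of Yap1, 136 bases before that of Wwtr1 and 65 bases before that of Amotl2, where it is on the opposite strand. Ankrd1 holds 2 matches, 210 and 123 bases before its start.

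The files give TPM, a transcript abundance scaled for gene length and to 1000000 per library, so levels can be set side by side between genes, but the depth is unknown. In each library 14381 to 16713 genes were at 1 TPM or above, mitochondrial genes took 4.27 to 12.7% of the TPM, and replicates correlated at r = 0.903 to 0.9455. Per the labels, each sample came from both ears of 1 pup. Whether replicate cultures were grown apart is not stated, so the p-values measure the spread between these samples, which may be technical. The hair cell gene Atoh1 was at 109 to 162 TPM in the Atoh1 sort, against 36.2 to 85.2 TPM in the Lgr5 and Sox2 sorts. All 10 hair cell markers were higher in the Atoh1 sort, with a median log2 difference of 1.03 beside 0.03 over all genes, and 0 of 10 passed the test. Supporting cell markers summed to a mean of 1709 TPM in the Atoh1 sort, 3597 TPM in the Lgr5 sort and 1709 TPM in the Sox2 sort. Of these markers 11 of 12 were lower in the Atoh1 sort (median log2 difference -0.80), with 0 of 12 passing. Markers of either type were present in all of the sorts, so the sorts are called by their labels and not as pure cell types. The epithelial gene Epcam was at 110.1 TPM or more in every library. A list of 12 proliferation genes summed to 31.7 to 35.8 TPM in sorted LCP D10, against 633 to 704 TPM in sorted LCP D0. It summed to 590 to 721 TPM in LCP D0, 369 to 618 TPM in LCP D2, 72.8 to 93.2 TPM in LCP D4, 36.3 to 68.2 TPM in LCP D10 and 59.0 to 114 TPM in the native sorts. The list was highest in the day 0 and day 2 cultures.

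Wwtr1 was higher in day 0 cultures than in the Lgr5 and Sox2 sorts, taken here as the study's native supporting cells, and it was the only one of the 10 genes to pass in that comparison. It had 19.1 and 9.99 TPM in sorted LCP D0 and 60.1 and 24.3 TPM in LCP D0, against 9.66 and 5.22 TPM in the Lgr5 sort and 8.34 and 2.50 TPM in the Sox2 sort. All 4 culture libraries lay above all 4 native libraries, and the lowest culture library was close to the highest native one. On the log2(TPM + 1) scale, day 0 cultures minus the Lgr5 and Sox2 sorts was 1.83 (SE 0.58, limma adjusted p = 0.0372, with Benjamini-Hochberg adjustment over 20463 genes at a threshold of 0.05). In that comparison 25.8% of all genes passed, and 9.92% passed as higher, so 1 higher member of 10 is near the share of all genes. The difference was 1.13 with an adjusted p of 0.334 in limma when sorted LCP D0 alone stood for the cultures, and 2.53 with an adjusted p of 0.0252 when LCP D0 alone did. Leaving out 1 library, the gene no longer passed without the first sorted LCP D0 (limma adjusted p = 0.104), the first LCP D0 (0.129), the first or second Lgr5 (0.0522 and 0.116) or the second Sox2 library (0.140). Gm16016, a processed pseudogene on the opposite strand within Wwtr1, was at 4.16 TPM or less in every library.

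Yap1, the other coactivator, had the same order of groups without passing. It had 11.05 and 11.5 TPM in sorted LCP D0 and 18.03 TPM in both LCP D0 libraries, against 10.7 and 2.28 TPM in the Lgr5 sort and 6.93 and 2.57 TPM in the Sox2 sort. All culture libraries were above all native ones, by a small margin over the first Lgr5 library. The log2 difference was 1.41 (SE 0.57, limma adjusted p = 0.0890), and with the replicate number as a block the limma adjusted p was 0.0365. Yap1 did not pass with the sequencing date as a term. Sums of Yap1 and Wwtr1 ran from 21.5 to 78.1 TPM in the day 0 cultures and from 5.07 to 20.35 TPM in the supporting cell sorts. Culture, sort and proliferation cannot be told apart in this comparison, where all 12 proliferation genes passed as higher. The first replicates compared here also did not all share a sequencing date. Mki67, a marker of cycling cells, averaged 6.25 TPM in the cultures and 0.231 TPM in the native sorts. The 10 hair cell markers were lower in the cultures, all 10 passing, and summed to 31.2 to 78.4 TPM there, against 983 to 1840 TPM in the Lgr5 and Sox2 sorts. Mesenchyme markers summed to 661 to 1620 TPM in the cultures and 371 to 714 TPM in the native sorts, while 6 of the 10 tested were lower in cultures and 2 higher; of the neuron markers 7 of 8 and of the glia markers 4 of 6 passed as lower, and of the epithelial markers 3 of 5 passed as higher. The part of these lists in the result was not tested. Fewer cells of a type and less RNA per cell cannot be told apart in such bulk samples.

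**Figure D1:**
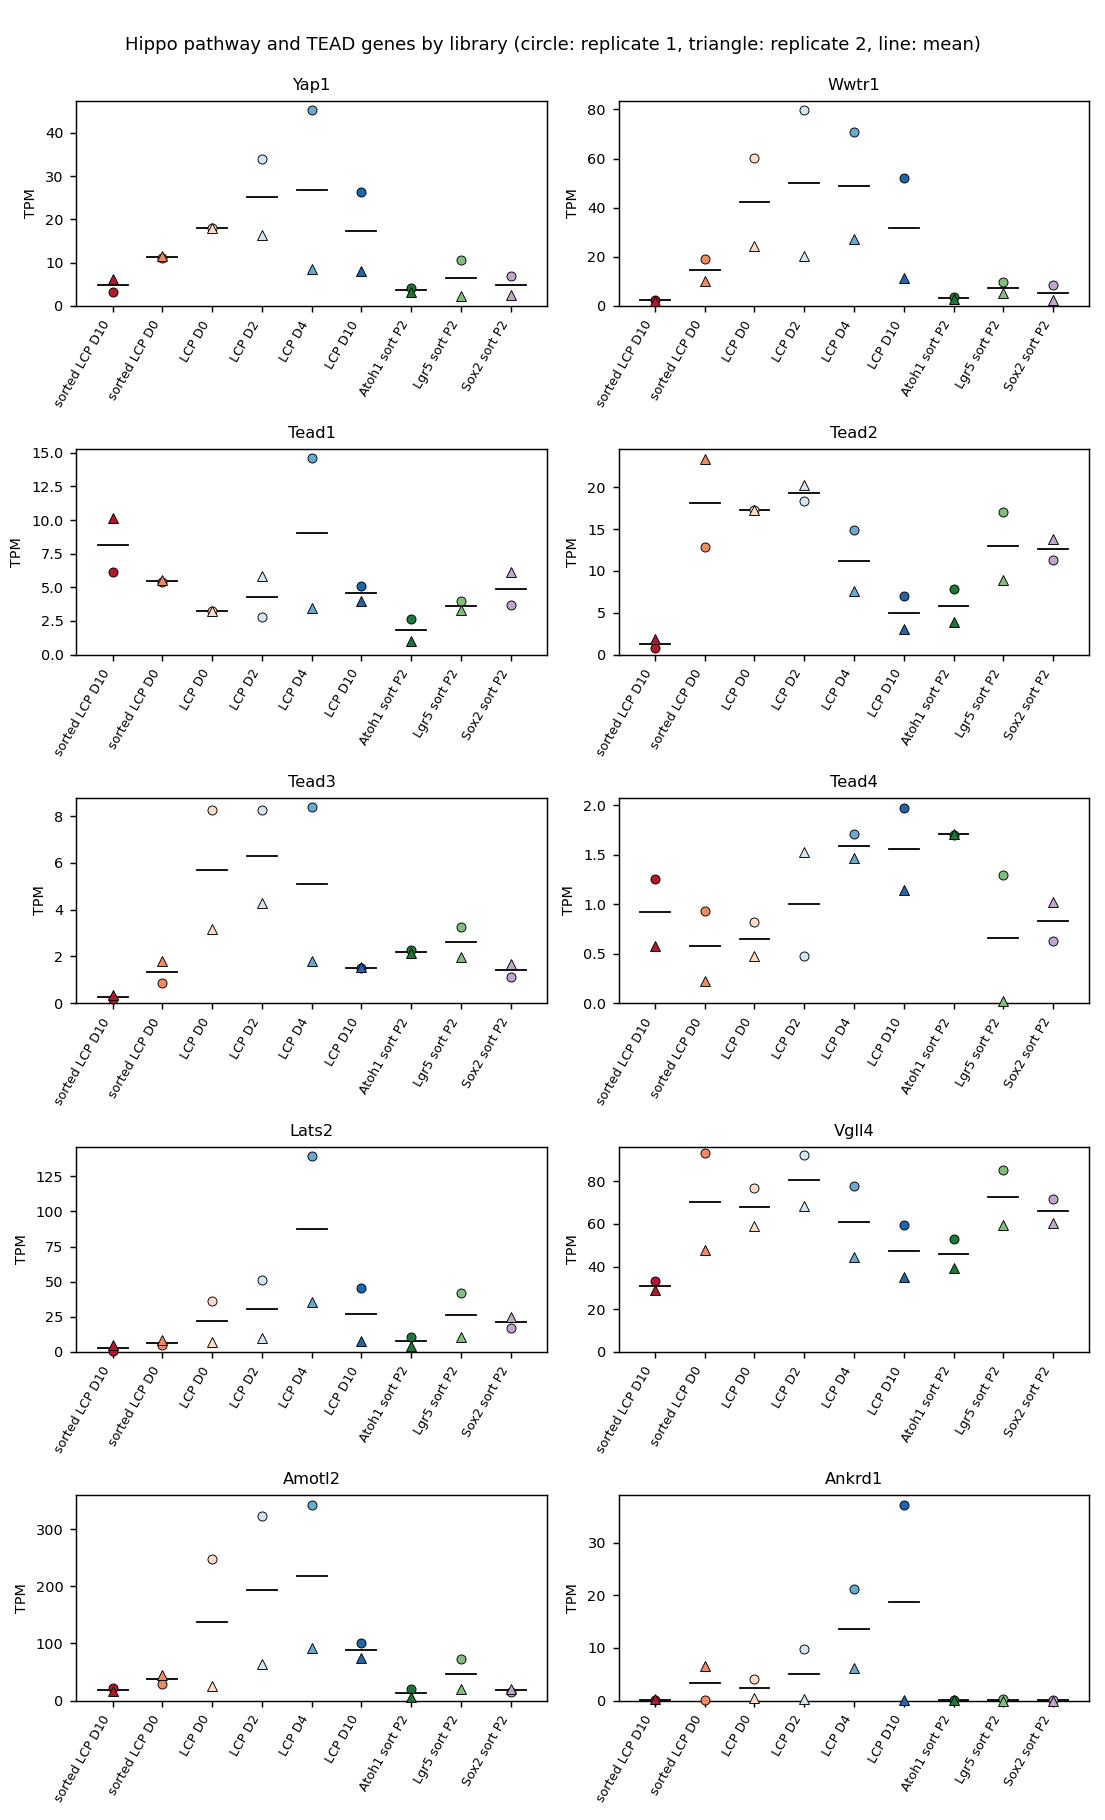
TPM of the 10 genes in each of the 18 libraries, with groups on the horizontal axis, circles for replicate 1, triangles for replicate 2 and a line at the mean of each group. Yap1 and Wwtr1 reach 45.3 and 79.7 TPM in unsorted cultures, where replicate 1 is mostly the higher library, while Tead2 is lowest in sorted LCP D10 at 0.785 and 1.82 TPM.

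Tead2 fell in sorted LCP cells between day 0 and day 10, and this was the difference with the lowest adjusted p among the 10 genes and 11 comparisons. Tead2, at chr7:45215753-45233644 on the plus strand (mm10), encodes a TEAD factor known from early embryos and neural progenitors. It had 0.785 and 1.82 TPM in sorted LCP D10, against 12.9 and 23.4 TPM in sorted LCP D0. The groups did not overlap. The log2 difference was -3.04 (SE 0.48, 95% interval -4.09 to -1.99, limma adjusted p = 0.00107). In that comparison 24% of all genes passed, 10.7% as lower, and of the 10 members Tead2 alone passed, so the count of members is at or below the share of all genes. It passed without each of the 4 libraries in turn, and had an adjusted p of 0.0572 in a limma fit of these 4 libraries alone. Cd37, a gene that overlaps Tead2 in the annotation, was at 0.0362 TPM or less in every library.

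Wwtr1 and Vgll4, which encodes a cofactor that competes with YAP and TAZ for TEAD proteins, had lower values in sorted LCP D10 and did not pass, though both did with the replicate block or the sequencing date as a term, and Vgll4 also after scaling by median ratios or without the second sorted LCP D0 library. Wwtr1 had 2.56 and 1.90 TPM in sorted LCP D10, against 19.1 and 9.99 TPM in sorted LCP D0, a log2 difference of -2.21 (SE 0.82) with a limma adjusted p of 0.0715, and of 0.00373 with the block. Vgll4 had 33.2 and 28.8 TPM in sorted LCP D10, against 93.0 and 47.8 TPM in sorted LCP D0, a log2 difference of -1.09 (SE 0.38) with a limma adjusted p of 0.0601, and of 0.00358 with the block. For both genes the day 10 libraries lay below the day 0 libraries on each sequencing date. Yap1 had 3.33 and 6.27 TPM in sorted LCP D10, against 11.05 and 11.5 TPM in sorted LCP D0, and its log2 difference of -1.13 (SE 0.80) had a limma adjusted p of 0.338. Amotl2, an angiomotin that binds YAP at cell junctions and is itself a target, had 21.1 and 15.8 TPM in sorted LCP D10, against 29.5 and 44.4 TPM in sorted LCP D0 (log2 difference -0.95, SE 1.05, limma adjusted p = 0.558). In all, 3 of the 10 members had an unadjusted limma p under 0.05, all lower, beside 7407 of all 20463 genes in either direction. The members' median log2 difference was -1.11, against 0.02 for all genes. All 12 proliferation genes were lower and all 10 hair cell markers were higher in sorted LCP D10, each passing. Mesenchyme markers summed to 49.2 to 64.1 TPM in sorted LCP D10, against 661 to 1620 TPM in sorted LCP D0, with 3 of 10 lower and 0 higher. Most of that sum was Dcn, with means of 40.6 TPM in sorted LCP D10 and 658 TPM in sorted LCP D0, and Lum, with means of 13.7 TPM in sorted LCP D10 and 478 TPM in sorted LCP D0. Col1a1 averaged 0.333 TPM in sorted LCP D10 and 0.607 TPM in sorted LCP D0. Of the epithelial markers 2 of 5 passed as lower, and of the neuron markers 4 of 8 passed as higher. The part of these lists in the result was not tested.

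Tead1 did not share the decline of Tead2, so the make-up of the TEAD family differed between the groups. Tead1, a broadly expressed TEAD factor known from heart and muscle, had 6.17 and 10.1 TPM in sorted LCP D10, against 5.40 and 5.58 TPM in sorted LCP D0 (log2 difference 0.46, SE 0.54, limma adjusted p = 0.583). Of the summed TPM of the 4 TEAD genes, Tead1 made up 73.5 and 78.7% in sorted LCP D10, against 26.9 and 17.97% in sorted LCP D0. Tead2 made up 9.36 and 14.2% in sorted LCP D10, against 64.3 and 75.5% in sorted LCP D0. The summed TPM itself was 8.39 and 12.9 in sorted LCP D10, against 20.1 and 31.0 in sorted LCP D0. Tead2 was the highest TEAD gene in 15 of the 18 libraries and Tead1 in the other 3, of which 2 were the sorted LCP D10 libraries. Tead3, another TEAD factor, was at 0.186 and 0.334 TPM in sorted LCP D10 and between 0.853 and 8.37 TPM in every other library. Tead4, known for its part in the first lineage choice of the mouse embryo, lay between 0.0225 and 1.98 TPM in the 18 libraries, and in the order of its means every group overlapped with the next.

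**Figure D2:**
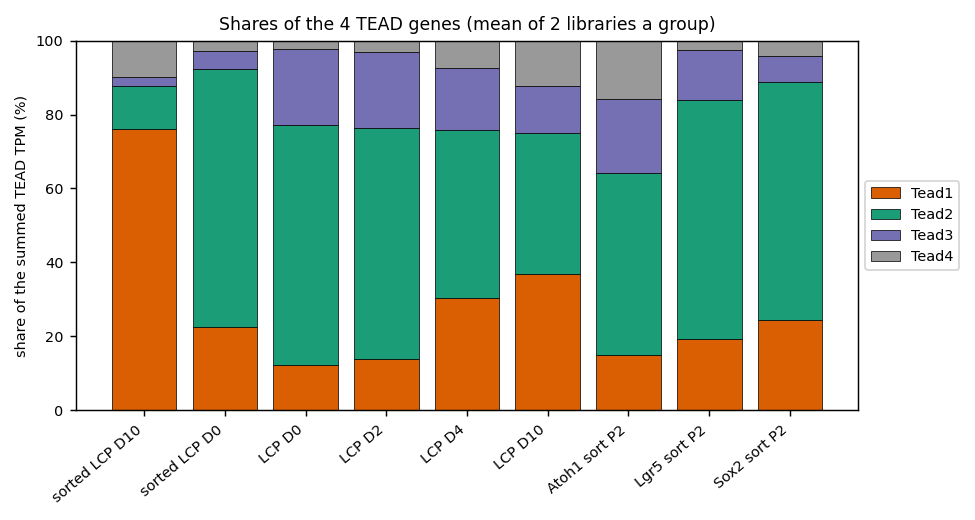
Share of the summed TPM of the 4 TEAD genes taken by each, in percent, as the mean of 2 libraries per group, with the groups on the horizontal axis and no error bars. Tead1 makes up 73.5 and 78.7% in the 2 sorted LCP D10 libraries, and Tead2 is the largest part in the means of the other groups.

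In unsorted cultures 0 of the 10 members passed between day 0 and a later day in limma. The 2 with an unadjusted limma p under 0.05 were both lower at day 10, where 4202 of all 20463 genes had such a p in either direction. Tead2 had 17.3 TPM in both LCP D0 libraries, 18.4 and 20.3 TPM in LCP D2, 14.8 and 7.59 TPM in LCP D4 and 6.99 and 3.02 TPM in LCP D10. Both day 10 libraries lay below both day 0 libraries. The log2 difference of LCP D10 minus LCP D0 was -1.69 (SE 0.48, limma adjusted p = 0.0567), and the adjusted p was 0.0491 with the replicate block. Tead2 did not pass with the sequencing date as a term, and the first replicates of LCP D0 and LCP D10 did not share a date. In that comparison 7.39% of all genes passed, and 0.0489% and 3.39% did for LCP D2 and LCP D4 against LCP D0. The share of Tead1 in the summed TEAD TPM was 11.04 and 13.4% in LCP D0, 9.29 and 18.3% in LCP D2, 36.9 and 23.9% in LCP D4 and 32.8 and 41.2% in LCP D10. Both D10 libraries were above both D0 libraries, as in the sorted cells, and this share was not tested. The change of Tead2 between day 0 and day 10 in sorted cells, minus that in unsorted cultures, was -1.35 on the log2 scale (SE 0.68, limma adjusted p = 0.506), in a comparison where 0.205% of all genes passed.

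The coactivators showed no passing difference between day 0 and later unsorted cultures, and their replicates were far apart. Wwtr1 had 60.1 and 24.3 TPM in LCP D0, 79.7 and 20.4 TPM in LCP D2, 71.0 and 27.0 TPM in LCP D4 and 52.1 and 11.6 TPM in LCP D10. Yap1 had 18.03 TPM in both LCP D0 libraries, 34.1 and 16.45 TPM in LCP D2, 45.3 and 8.43 TPM in LCP D4 and 26.4 and 8.13 TPM in LCP D10. The first replicate was the higher one at each later day and the days overlapped. For LCP D10 minus LCP D0 the 95% intervals ran from -2.40 to 1.19 for Wwtr1 and from -2.02 to 1.49 for Yap1. This fit without a block could therefore have missed sizeable changes in either direction. With the replicate block the SE was 0.43 for Wwtr1 and 0.64 for Yap1, and neither passed (limma adjusted p = 0.443 and 0.885). All 12 proliferation genes were lower at day 4 and at day 10 than at day 0, each passing, and 0 of 12 passed at day 2 in limma; whether they and the coactivators differ in this was not tested. Across the 9 groups replicate 1 was above replicate 2 in 9 for Wwtr1 and Vgll4 and in 7 for Yap1 and Amotl2; replicates 1 and 2 were sequenced on different dates in every group.

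The target genes and Lats2 had their highest means in differentiating unsorted cultures, again with replicates far apart at most times. Ankrd1, a classical YAP and TAZ target that encodes an ankyrin repeat protein, had 4.17 and 0.510 TPM in LCP D0, 9.83 and 0.304 TPM in LCP D2, 21.1 and 6.11 TPM in LCP D4 and 37.2 and 0.194 TPM in LCP D10. Both LCP D4 libraries were above both LCP D0 libraries, while LCP D10 held both the highest value of the series and the lowest among the unsorted cultures. The log2 difference of LCP D4 minus LCP D0 was 2.17 (SE 1.45, limma adjusted p = 0.577). Ankrd1 was 0.0173 and 0.212 TPM in sorted LCP D10, against 0.0555 and 6.55 TPM in sorted LCP D0, and it was at most 0.223 TPM in the native sorts, where 2 libraries were listed at 0.

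Amotl2, the angiomotin, was the most abundant of the 10 genes in 6 of the 8 unsorted libraries, and Vgll4 in the other 2. It had 247.5 and 26.2 TPM in LCP D0, 323 and 64.8 TPM in LCP D2, 342 and 91.6 TPM in LCP D4 and 101 and 74.7 TPM in LCP D10. Lats2, the kinase that restrains YAP and TAZ and whose gene is also one of their targets, had 36.0 and 7.36 TPM in LCP D0, 51.5 and 9.98 TPM in LCP D2, 139 and 35.5 TPM in LCP D4 and 45.8 and 7.98 TPM in LCP D10. For both genes replicate 1 was the higher one at all 4 times. LCP D4 minus LCP D0 was 1.12 for Amotl2 (SE 1.05, limma adjusted p = 0.742) and 2.03 for Lats2 (SE 1.12, limma adjusted p = 0.458). Within each replicate number Lats2, Amotl2 and Ankrd1 were all higher in LCP D4 than in LCP D0. With the replicate block the SE was 1.00 for Lats2, 0.80 for Amotl2 and 1.38 for Ankrd1, and none passed (limma adjusted p = 0.331, 0.540 and 0.477). Lats2 values are uncertain, since the annotation places Gm20430, a processed pseudogene on the opposite strand with 528 to 1504 TPM, and the protein-coding Gm49361 on the same strand over it, and the library kits named in the labels do not mark the strand.

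At day 10, 9 of the 10 members had negative log2 differences between sorted LCP cells and unsorted cultures, but 0 of 10 passed in limma. Of the 10, 3 had an unadjusted limma p under 0.05, all lower, beside 4847 of 20463 genes in either direction. In that comparison 6.22% of all genes passed. Wwtr1 had 2.56 and 1.90 TPM in sorted LCP D10, against 52.1 and 11.6 TPM in LCP D10, and the log2 difference of -3.01 (SE 0.82) had a limma adjusted p of 0.0517, or 0.00470 with the replicate block. Lats2 had 0.398 and 4.97 TPM in sorted LCP D10, against 45.8 and 7.98 TPM in LCP D10 (log2 difference -2.83, SE 1.12, limma adjusted p = 0.152). Tead1 alone had a positive log2 difference, of 0.69 (SE 0.54, limma adjusted p = 0.460), with both sorted libraries above both unsorted ones. The members' median log2 difference was -1.42, against 0 for all genes. Hair cell markers summed to 1365 to 1694 TPM in sorted LCP D10, against 654 to 1026 TPM in LCP D10, and 0 of the 10 passed. Mesenchyme markers summed to 49.2 to 64.1 TPM in sorted LCP D10, against 451 to 512 TPM in LCP D10, with 2 of 10 lower and 0 higher. Epithelial markers had 2 of 5 lower and 0 higher, and the part of either list in these values was not tested. At day 0 the sorted and unsorted cells gave 0 passing members in limma, 1 with an unadjusted p under 0.05 (Tead3, log2 difference -1.45, SE 0.55, limma adjusted p = 0.473). In that comparison 0.0782% of all genes passed and 1948 of 20463 had an unadjusted p under 0.05.

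Sorted LCP D10 cells and the native Atoh1 sort both had low levels of the coactivators, while Tead1 and Tead2 stood in opposite order. Yap1 had 3.33 and 6.27 TPM in sorted LCP D10, against 4.25 and 3.18 TPM in the Atoh1 sort, and Wwtr1 had 2.56 and 1.90 TPM in sorted LCP D10, against 3.57 and 2.82 TPM in the Atoh1 sort. The Yap1 libraries overlapped and the Wwtr1 libraries did not, and the 95% intervals of the log2 differences were -1.49 to 2.01 for Yap1 and -2.17 to 1.41 for Wwtr1. Tead1 had 6.17 and 10.1 TPM in sorted LCP D10, against 2.61 and 1.04 TPM in the Atoh1 sort (log2 difference 1.72, SE 0.54, limma adjusted p = 0.0608). Tead2 had 0.785 and 1.82 TPM in sorted LCP D10, against 7.78 and 3.86 TPM in the Atoh1 sort (log2 difference -1.54, SE 0.48, limma adjusted p = 0.0596). Neither gene's groups overlapped and neither passed in limma, where 11.8% of all genes passed. Of the 10 members, 3 had an unadjusted limma p under 0.05, beside 5426 of 20463 genes in either direction. Tead1 passed, with an adjusted p of 0.0378, after scaling of the libraries by median ratios. Tead2 passed with a pseudocount of 0.1 (0.0354). Tead3 had 0.186 and 0.334 TPM in sorted LCP D10, against 2.264 and 2.135 TPM in the Atoh1 sort (log2 difference -1.35, SE 0.55, limma adjusted p = 0.138). It passed in limma with a pseudocount of 0.1 (0.0336), the sequencing date as a term (0.0211) or only the groups compared (0.0469).

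Among the native sorts 0 members passed in limma. In Atoh1 against Lgr5 and Sox2 sorts 1 member, Tead2, had an unadjusted limma p under 0.05, beside 2448 of 20463 genes in either direction. Tead2 had 7.78 and 3.86 TPM in the Atoh1 sort, against 17.1 and 8.92 TPM in the Lgr5 sort and 11.3 and 13.8 TPM in the Sox2 sort. The Atoh1 libraries lay below the other 4, and the log2 difference was -1.04 (SE 0.42, limma adjusted p = 0.340), in a comparison where 0.821% of all genes passed. Tead1, Lats2 and Vgll4 also had both Atoh1 libraries below the other 4, and Tead4 had them above, a separation that was not counted over all genes. Vgll4 exceeded the sum of Yap1 and Wwtr1 in all 6 native libraries, by ratios of 6.75 and 6.55 in the Atoh1 sort, 4.18 and 7.95 in the Lgr5 sort and 4.68 and 11.9 in the Sox2 sort. The same ratio was 5.64 and 3.53 in sorted LCP D10 and 3.08 and 2.22 in sorted LCP D0, and it lay between 0.667 and 1.86 in the 8 unsorted libraries. The unsorted cultures did not overlap with the native or sorted cells in this ratio, which was not tested. The Lgr5 sort minus the Sox2 sort gave 0 passing members and 0 with an unadjusted p under 0.05 in limma. In that comparison 0.557% of all genes passed and 1340 of 20463 had an unadjusted p under 0.05.

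**Figure D3:**
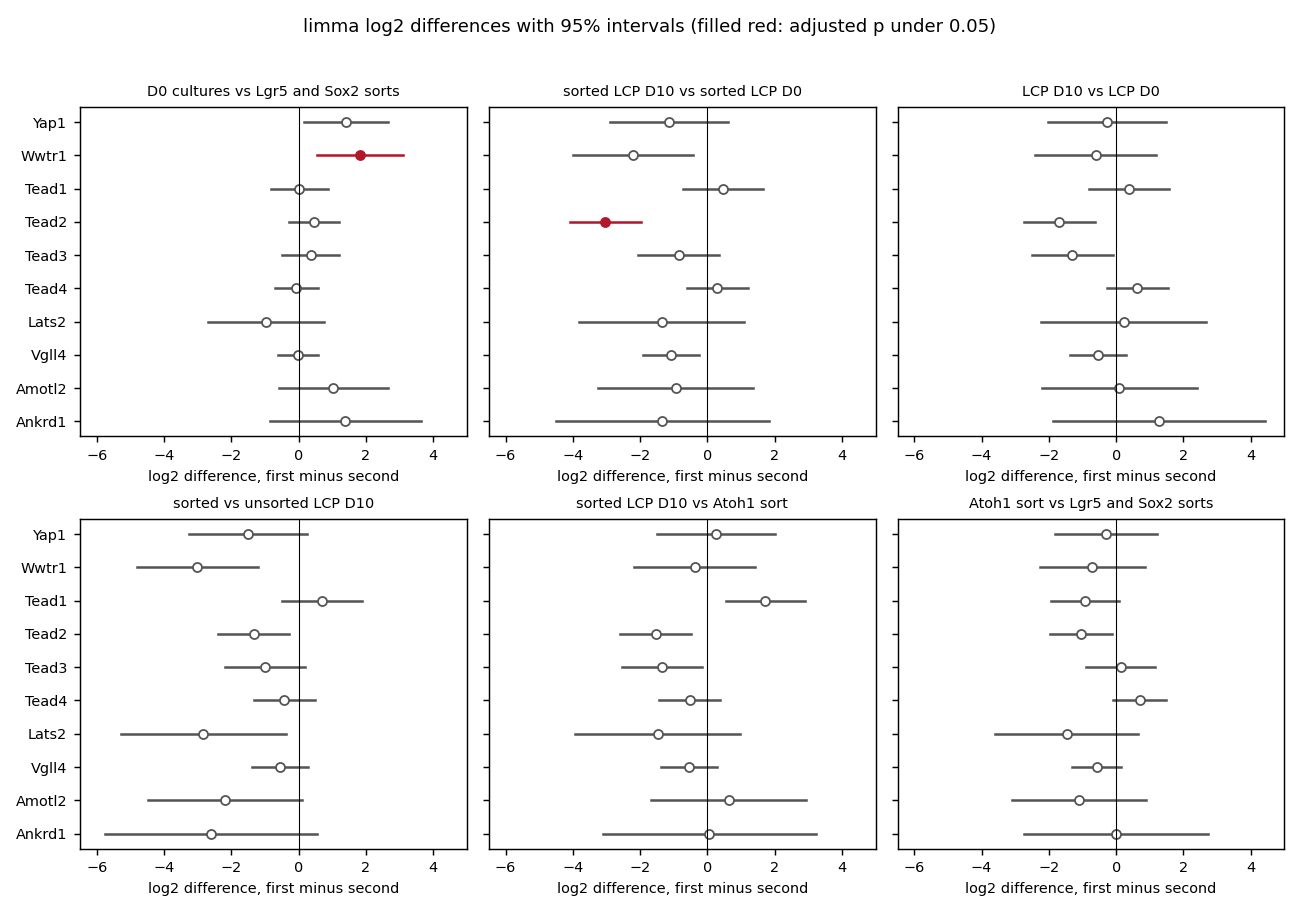
Log2 differences in log2(TPM + 1) of the 10 genes in 6 comparisons, first group minus second, with 95% intervals from limma, and filled red points where the adjusted p passed 0.05. Wwtr1 in day 0 cultures (1.83) and Tead2 in sorted LCP D10 (-3.04) are the filled points, and the intervals of Lats2, Amotl2 and Ankrd1 are the widest.

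Other genes of the pathway were taken from a list of 27, of which 24 were expressed highly enough to be tested and Fat4, Vgll1 and Vgll2 were not. Of these, 6 passed in at least 1 comparison, a share that was not counted over all genes. Wwc1 (the gene of KIBRA, an upstream activator of the LATS kinases) was the most abundant of them. It averaged 75.2 TPM in day 0 cultures, against 217 TPM in the Lgr5 and Sox2 sorts, a log2 difference of -1.55 (SE 0.23, limma adjusted p = 0.000382). It averaged 179.9 ± 50.1 TPM in sorted LCP D10, against 58.7 ± 4.26 TPM in sorted LCP D0 (SD, n = 2 each), a log2 difference of 1.57 (SE 0.32, limma adjusted p = 0.00433). In sorted LCP D10 it was lower than in the Atoh1 sort, which averaged 404 TPM (log2 difference -1.16, SE 0.32, limma adjusted p = 0.0362).

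In day 0 cultures against the native supporting cell sorts, 1 of the 24 rose and 1 fell. The gene that rose was Map4k4, a kinase that can act in parallel with Stk3 and Stk4, with a log2 difference of 1.42 (SE 0.32, limma adjusted p = 0.00621). Between sorted LCP D10 and D0, 2 rose and 1 fell. Taok2, of the TAO kinases that act upstream of Stk3 and Stk4, rose with a log2 difference of 1.63 (limma adjusted p = 0.0228), and Ajuba, a LIM protein that inhibits LATS kinases, fell by 2.24 (limma adjusted p = 0.0274). Against the Atoh1 sort, sorted LCP D10 had 3 of 24 lower and 0 higher, which were Wwc1, Mob1a (the LATS cofactor, -2.25, limma adjusted p = 0.0262) and Wwc2 (a relative of Wwc1, -1.51, limma adjusted p = 0.00585). The remaining comparisons had 0 of the 24 passing in limma. These counts stand beside 25.8% of all genes passing in day 0 cultures against the supporting cell sorts, 24% between sorted LCP D10 and D0 and 11.8% between sorted LCP D10 and the Atoh1 sort, and are near or below those shares. The median log2 difference of the list was 0.13 in day 0 cultures against supporting cells and -0.28 between sorted LCP D10 and D0, beside -0.06 and 0.02 over all genes.

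A signature of 22 YAP and TAZ target genes, of which Dock5 was too low to test, did not move as one in every comparison. It holds Amotl2, Lats2 and Ankrd1 of the members and Ptpn14 of the list above. In day 0 cultures against the supporting cell sorts, 4 of 21 rose and 3 fell, with a median log2 difference of 0.22 beside -0.06 over all genes, where 25.8% of all genes passed and 9.92% passed as higher. Ccdc80, a secreted matrix protein, rose by 1.88 on the log2 scale (limma adjusted p = 0.0167), Axl, a receptor tyrosine kinase, by 1.64 (limma adjusted p = 0.0101) and Nuak2, a kinase, by 1.53 (limma adjusted p = 0.00893). Igfbp3, which binds insulin-like growth factors, averaged 11.65 TPM in the cultures, against 271 TPM in the supporting cell sorts, and fell by 4.97 on the log2 scale (SE 0.52, limma adjusted p = 4.00e-05). Crim1 and Nt5e also fell, with Nt5e at means of 0.1717 TPM in the cultures and 1.975 TPM in the supporting cell sorts, near the filter of 1 TPM.

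Between sorted LCP D10 and D0, 2 of the 21 targets rose and 4 fell, with a median of -0.71 beside 0.02 over all genes, where 24% of all genes passed and 10.7% passed as lower. Axl averaged 1.00 TPM in sorted LCP D10, against 37.0 TPM in sorted LCP D0, and fell by 4.11 (SE 0.56, limma adjusted p = 0.000491). Ccdc80 fell by 3.70 (limma adjusted p = 0.00338) and Fjx1 by 2.07 (limma adjusted p = 0.0305), while Crim1 rose by 1.90 (limma adjusted p = 0.0108) and Asap1 by 1.23 (limma adjusted p = 0.0493). Axl was also lower in LCP D4 (-2.40, limma adjusted p = 0.0402) and LCP D10 (-2.63, limma adjusted p = 0.0158) than in LCP D0, and Nuak2 was higher in LCP D4 than in LCP D0 (2.46, limma adjusted p = 0.0227). Among the targets of sorted LCP D10 against LCP D10, 4 fell and 0 rose, with a median of -2.15 beside 0 over all genes, where 6.22% passed. Of the 21 differences there, 18 were below 0 and 3 above. Fjx1 fell by 2.53, Rbms3 by 2.32 and Tgfb2 by 2.25, at limma adjusted p-values of 0.0352, 0.00712 and 0.0443. Sorted LCP D10 against the Atoh1 sort had 3 lower and 0 higher, where 11.8% of all genes passed. These were Igfbp3 at -5.14 (limma adjusted p = 0.00117), Axl at -2.06 (limma adjusted p = 0.0355) and Foxf2 at -1.48 (limma adjusted p = 0.00305). In Atoh1 against Lgr5 and Sox2 sorts, where 0.821% of all genes passed, 17 of the 21 differences were below 0 and 4 above. Their median was -0.79 beside 0.03 over all genes. Foxf2 rose by 1.11 (limma adjusted p = 0.0384) and Nt5e fell by 1.04 (limma adjusted p = 0.0347), and these alone passed. Foxf2 averaged 1.859 TPM in the Atoh1 sort and 0.3356 TPM in the other sorts, and Nt5e 0.4363 and 1.975 TPM. Both lay near the filter of 1 TPM, and each met it with the help of the groups where it was higher.

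Cyr61, the most abundant target and a secreted matrix protein, passed in none of the 11 comparisons. Its means were 203 ± 125 TPM in sorted LCP D10 and 359 ± 186 TPM in sorted LCP D0. They were 397 ± 204 TPM in LCP D0, 719 ± 69.4 TPM in LCP D2, 1259 ± 250 TPM in LCP D4 and 816 ± 4.33 TPM in LCP D10, and 231 ± 164 TPM in the Atoh1 sort, 1036 ± 940 TPM in the Lgr5 sort and 367 ± 353 TPM in the Sox2 sort (SD, n = 2 each). The LCP D2, D4 and D10 libraries were all above those of LCP D0. Both Atoh1 libraries were below both Lgr5 libraries, and the Sox2 libraries overlapped with those of either. Summed over the 22 targets, the first Lgr5 library reached 4557 TPM and the second 1035 TPM, while the 8 unsorted cultures lay between 1039 and 4844 TPM.

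**Figure D4:**
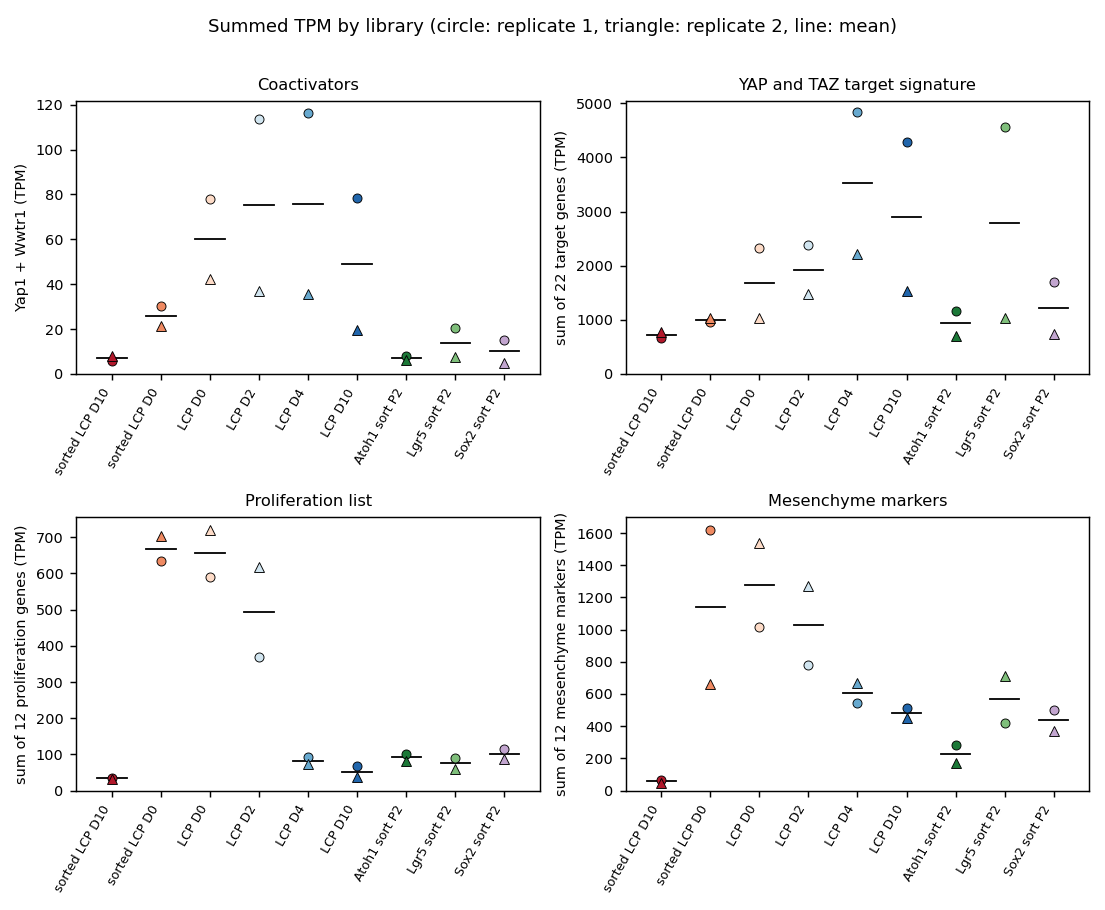
Summed TPM in each library of Yap1 and Wwtr1, of the 22 target genes, of the 12 proliferation genes and of the 12 mesenchyme markers, with circles for replicate 1, triangles for replicate 2 and a line at the mean. The proliferation sum is 31.7 to 35.8 TPM in sorted LCP D10, against 633 to 704 TPM in sorted LCP D0. The target sum is 669.5 and 780.6 TPM in sorted LCP D10, against 967.9 and 1030 TPM in sorted LCP D0.

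The likeness of the genes' patterns was measured as Pearson's r of log2(TPM + 1) over the 9 group means, which share libraries and scaling, so r is a description without a p. Yap1 and Wwtr1 were each other's nearest member (r = 0.973), as were Tead2 and Vgll4 (r = 0.977). Amotl2 was nearest to Wwtr1 (r = 0.953) and Ankrd1 to Amotl2 (r = 0.879). Tead1 and Tead4 had no near member, with highest r of 0.357 and 0.411, both with Ankrd1. Among 9602 genes outside the list, those nearest to Yap1 were D1Ertd622e (r = 0.991), Cdcp1 (r = 0.988) and Ror1 (r = 0.986). Those nearest to Tead2 were Gpc6 (r = 0.987), Ppic (r = 0.982) and Rhbdf1 (r = 0.981). Those nearest to Amotl2 were Rgmb (r = 0.987), Ing5 (r = 0.987) and Frk (r = 0.982), and those nearest to Ankrd1 were Crb3 (r = 0.975), Rnf39 (r = 0.973) and Myc (r = 0.971).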

How the data were processed

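The authors deposited TPM for each gene in a file per library, with every library scaled to 1000000; TPM keeps no depth, so no counting intervals are given, and a rise of abundant genes lowers the others. Per the labels' protocols, cDNA was made from 2.5 ng of RNA with the SMARTer V4 kit, and single-end reads of 75 bp were sequenced. Per the submitters' processing notes, STAR, Salmon, FastQC and DESeq2 were used in some role, with no version given, and the build was mm10. A tamoxifen and beta-catenin protocol in the labels fits none of the titles and played no part in the grouping. Gene names came from GENCODE M21 for 47224 of 47729 identifiers.

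Tests used log2(TPM + 1). The 20463 genes that reached 1 TPM in 2 or more libraries were tested, all 10 members among them. Groups were taken from the sample titles. limma 3.58.1 in R 4.3.3 (with trend) fitted all 18 libraries with a mean per group, leaving 9 residual degrees of freedom; Benjamini-Hochberg adjustment ran over all genes in each of 11 comparisons at 0.05. Because of the added 1, changes of low genes come out too small. In simulated data for sorted LCP D10 against D0, limma recovered 5% of 100 genes with a true log2 change of 1 and 31% of 100 with a change of 2, with 5 false calls among 20263 unchanged genes. Far more genes, 24%, passed in the real comparison, which makes the adjusted threshold less strict there. The simulated rates therefore do not give the recovery in the real comparison. No 2 libraries were identical. Python 3.11.15 with numpy 2.4.6 and pandas 2.3.3 made the tables.

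Members and gene lists were chosen with earlier results of these data known. All 10 members are named; of the other pathway genes and targets, up to 3 passing genes per direction and comparison with the largest log2 difference are named, and the most abundant gene that did not pass. Crim1 and Nt5e, Wwc1 and Cyr61 fall under this rule; Fat4, Vgll1, Vgll2, Dock5 and Ptpn14 are named for the filter or the overlap of lists.

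Replicate numbers come with sequencing dates in the labels: all 9 second replicates share 1 date and the first replicates fall on 2 others (3 groups and 6 groups), so the numbers were taken to pair the samples, and a fit with the replicate number as a block was an alternative. Deviations of same-numbered libraries correlated at -0.0187 to 0.483 (median 0.103) over 36 pairs of groups, 18 of them over 0.1. The labels date extraction after sequencing for 7 libraries, so extraction dates were not used. Other alternatives were the pseudocount, the filter, scaling by median ratios, sequencing date as a term, a fit of the compared groups only and leaving out each library. The date term moved the median log2 difference of all genes from -0.0550 to -0.0623 in day 0 cultures against the Lgr5 and Sox2 sorts. It moved it from -0.0792 to -0.1085 in LCP D10 against LCP D0 and from -0.118 to -0.167 in sorted against unsorted LCP D0. First replicates in these comparisons therefore did not all share a date.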

Additional observations from a re-analysis of the deposited data

How the results depend on the processing

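Of 1429 recomputations of a member's difference, 1397 kept their side of the threshold, 22 came to pass, 10 ceased to pass and 0 passing differences changed sign. In day 0 cultures against the Lgr5 and Sox2 sorts, the members passing were 1 as reported and 0 with a pseudocount of 5 (Wwtr1 adjusted p = 0.0579), with no filter (0.0692), with only the groups compared (0.0530) or with sorted LCP D0 alone, an alternative chosen after seeing the data, as was LCP D0 alone. The count was 2 with the replicate block and 0 to 1 over the fits leaving out 1 library, of which Wwtr1 passed in 3 of 8; its adjusted p was 0.104 without the first sorted LCP D0 library, 0.129 without the first LCP D0 library, 0.0522 without the first and 0.116 without the second Lgr5 library, and 0.140 without the second Sox2 library. In LCP D10 against LCP D0, 1 member (Tead2) passed with a filter of 5 TPM or the block, and 0 to 1 over leave-one-out fits. In sorted LCP D10 against D0, 2 passed with scaling by median ratios, 3 with the block or the sequencing date and 0 with only the groups compared (Tead2 adjusted p = 0.0572), and 1 to 2 over leave-one-out fits. In sorted against unsorted LCP D10, 1 passed with scaling or the block and 2 with the sequencing date, and 0 to 2 over leave-one-out fits. In sorted LCP D10 against the Atoh1 sort, 2 passed with a pseudocount of 0.1 and 1 each with scaling, the sequencing date or only the groups compared. The other comparisons stayed at 0 in every setting run, and the block changed no other member's call. Without 1 library, limma passed Tead2 in LCP D10 against LCP D0 (adjusted p = 0.0414, without the first LCP D10 library), Vgll4 in sorted LCP D10 against D0 (0.0298, without the second sorted LCP D0 library), Wwtr1 and Ankrd1 in sorted against unsorted LCP D10 (0.0193 and 0.0311, without the second LCP D10 library) and Yap1 in day 0 cultures against the Lgr5 and Sox2 sorts (0.0426, without the first Lgr5 library). The cause of these changes was not tested.

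Scaling moved the median of all genes from -0.12 to 0.01 in sorted against unsorted LCP D0, from 0 to 0.11 in sorted against unsorted LCP D10 and from -0.11 to 0.09 in sorted LCP D10 against the Atoh1 sort. It moved the genes passing as higher and lower from 922 and 1502 to 1466 and 1074 in the last of these, from 624 and 888 to 765 and 678 in LCP D10 against LCP D0, from 65 and 103 to 50 and 128 in Atoh1 against Lgr5 and Sox2 sorts, from 3 and 7 to 1 and 4 in LCP D2 against LCP D0, and from 6 and 10 to 6 and 6 in sorted against unsorted LCP D0. With TPM alone the depth that limits low genes such as Tead3, Tead4 and Ankrd1 is unknown.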
